A study of Mus musculus with 3 samples.

Results

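The comparison described here is that of NUP153 KD-1 with control mouse embryonic stem (ES) cells across all genes of the read count tables. Of 24421 genes, 12676 whose mean over both libraries reached 100 reads were described, 8104 had reads below this minimum and 3641 had no read in either library. Both libraries were made from the female ES cell line EL 16.7 of an F2 background labelled 129S1/CastEiJx 129S1. Control cells received a scramble shRNA lentivirus and KD-1 cells the lentivirus of NUP153 shRNA-1, each with Polybrene at 4 µg/ml. Both were then selected for 2 days with 2 µg/ml puromycin. All cells grew with LIF and serum on γ-irradiated feeder fibroblasts from Tg(DR4)1Jae/J mouse embryos, and the labels do not mention a step that removed the feeders before RNA was isolated. Total RNA was depleted of ribosomal RNA and sequenced. Another hairpin against the same gene gave a NUP153 KD-2 library, which is set beside KD-1 for named genes and some lists, and both are compared with the same control library.

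NUP153 is a nucleoporin of the basket on the nuclear face of the nuclear pore complex (NPC), where it takes part in the import of proteins and the export of RNA. It also binds chromatin, and in ES cells it has been studied for its contact with promoters and with the architectural proteins CTCF and cohesin. ES cells hold the pluripotency program of the early embryo, keep most germline genes methylated or otherwise silent, and have a weak interferon response compared with fibroblasts.

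Each group is 1 library, so no test of the difference between conditions was possible and no p-value is given. Differences are log2 ratios of KD-1 over control after KD-1 reads were divided by 1.17, the upper-quartile scaling. KD-2 reads were divided by 1.07, and with library totals in its place each KD-2 log2 ratio would be 0.15 higher. The 95% intervals in brackets are exact Clopper-Pearson intervals of the read counts. They cover counting error only, and neither biological nor library preparation spread. Read counts of a gene are given in the order control, KD-1 and KD-2, or control and KD-1 where only these are given, and a log2 ratio on its own is that of KD-1 over control. A gene is called higher or lower where its ratio was past 1.5-fold, which is 0.585 on the log2 scale.

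The control library held 72344726 reads on genes, the KD-1 library 85258834 and the KD-2 library 69839336. Reads outside genes made up 21.8% of the control, 24.1% of the KD-1 and 21.5% of the KD-2 library. The targeted gene was lower in the library labelled KD-1. Nup153 had 27870 reads in control against 16451 in KD-1, a log2 ratio of -0.98 [-1.01 to -0.96] or 1.98-fold. In KD-2 it had 11126 reads and a log2 ratio of -1.42. The ES label was checked with 25 pluripotency genes, all of which passed the read minimum. Pou5f1, the core pluripotency factor, had 35405 reads in control against 45092 in KD-1, and Nanog had 44622 and 61737. Y-linked genes, which the labelled female line lacks, were also read: Ddx3y had 3662 reads in control, 2853 with KD-1 and 5792 with KD-2.

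Across the 12676 genes the median log2 ratio was 0.01. The quartiles were -0.14 and 0.18, and the 1st and 99th percentiles were -0.98 and 0.96. KD-1 was past 1.5-fold higher in 484 genes (3.82%) and lower in 511 genes (4.03%), which is 7.85% in either direction. The first 2 percentages are the background against which each gene list below is read. Past 2-fold there were 111 higher and 121 lower genes, and past 4-fold 20 and 13. Of the higher genes 106 had fewer than 100 reads in control, and of the lower genes 46 had fewer than 100 in KD-1, so these reached the minimum through the library in which they were high. Ets2 at 0.585 was the last gene inside on the higher side and Rapgef3, at 0.585 after rounding, the first outside. On the lower side these were Sphk1 at -0.59 and Aph1b at -0.58.

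The share of genes past the fold changed with read depth. Among 4862 genes with a mean of 100 to under 1000 reads, 387 were higher and 301 lower, and the SD of the log2 ratio was 0.45. Among 6193 genes with 1000 to under 10000 reads, 88 were higher and 184 lower, with an SD of 0.27. Of the 1621 genes with 10000 reads or more, 9 were higher and 26 lower, with an SD of 0.25. The counting interval reached a median of 0.22, 0.08 and 0.03 to either side of the ratio in these strata.

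**Figure D1:**
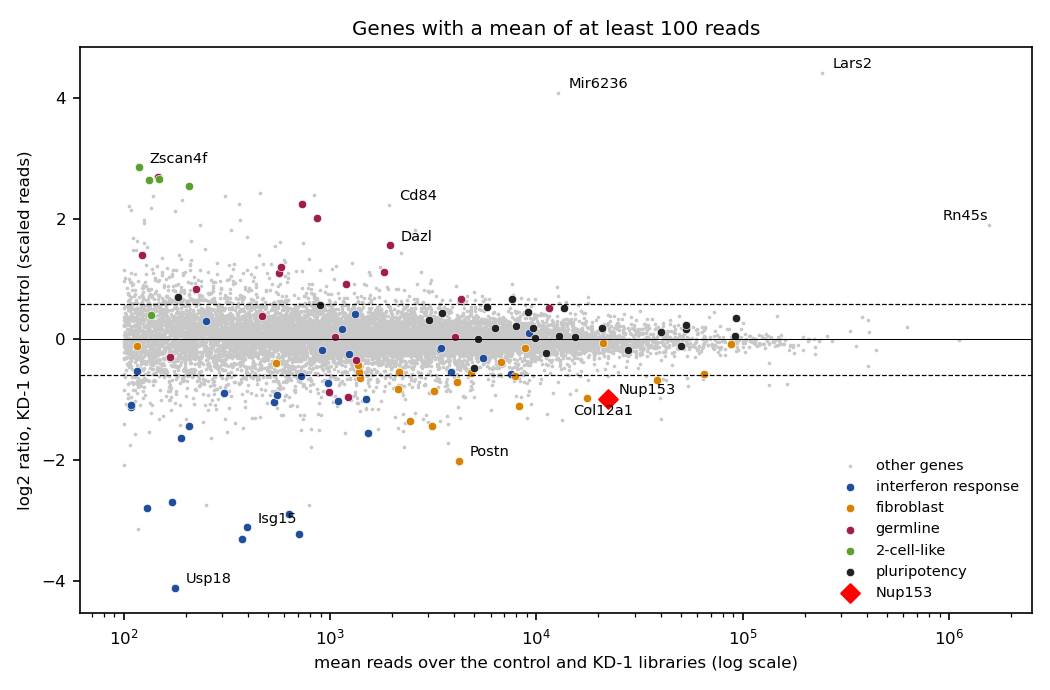
Log2 ratio of scaled reads (KD-1 over control) against the mean reads of both libraries on a log axis, 1 point a gene for the 12676 genes described. Dashed lines mark 1.5-fold. Interferon response genes reach down to Usp18 at -4.11, the Zscan4 genes lie near the top left, and Lars2 and Mir6236 stand above 4.

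The lowest ratios of the genes described belonged to genes of the interferon response. Type I interferons signal through the receptor chains IFNAR1 and IFNAR2 to a complex with STAT2 and IRF9 that binds the interferon-stimulated response element (ISRE) in the promoters of its target genes. Of 39 listed interferon response genes, 31 passed the read minimum. Of these 19 were lower, 61.3% against 4.03% of all genes described, none was higher and 12 were past the fold in neither direction. Of the lower genes, Usp18, Ifi44, Isg15, Gbp3, Rtp4 and Dhx58 had fewer than 100 reads in KD-1 and reached the minimum through control. The list was chosen with earlier results of these data known. The median log2 ratio of the list was -0.93. Fibroblast markers were lower in the same library, with a median of -0.59, and fewer cells of a type and less RNA per cell cannot be told apart in bulk RNA.

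Promoter sequences show which of the lower interferon genes carry the element. The ISRE was searched as GAAA, any 2 bases and GAAA, on both strands, in 300 bases per gene, 250 before and 50 after the RefSeq gene start (GRCm38.p6), using the first promoter listed. Of the 19 lower genes 13 had a promoter in the table, and 8 of these held a match. Each is shown on the strand of the gene, 5′ to 3′, with the match in capitals. A match on the opposite strand reads TTTC, any 2 bases and TTTC. They are given because they are the sequence that the interferon-activated complex is known to read.
Ifit1: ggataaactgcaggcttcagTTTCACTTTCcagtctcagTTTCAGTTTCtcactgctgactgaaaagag
Isg15: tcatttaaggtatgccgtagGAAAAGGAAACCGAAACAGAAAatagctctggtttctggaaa
Ifit3: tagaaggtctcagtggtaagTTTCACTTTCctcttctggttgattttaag
Gbp3: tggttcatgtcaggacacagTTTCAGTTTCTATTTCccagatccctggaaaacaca
Gbp2: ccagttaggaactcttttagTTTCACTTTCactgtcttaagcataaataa
Ifih1: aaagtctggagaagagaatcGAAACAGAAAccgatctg
Rsad2: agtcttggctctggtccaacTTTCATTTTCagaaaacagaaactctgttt
Stat2: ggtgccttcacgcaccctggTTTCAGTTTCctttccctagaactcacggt

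These windows lie at chr19:34640765-34640833 on the plus strand for Ifit1, chr4:156200855-156200916 on the minus strand for Isg15 and chr19:34583353-34583402 on the plus strand for Ifit3. Those of Gbp3 and Gbp2 lie at chr3:142559979-142560034 and chr3:142620584-142620633, both on the plus strand. Ifih1 is at chr2:62646206-62646243 and Rsad2 at chr12:26456543-26456592, both on the minus strand, and Stat2 at chr10:128270256-128270305 on the plus strand. The match began 104 bases before the gene start in Ifit1, 78 in Isg15 and 45 in Gbp3, and in Ifih1 it lay inside the transcript, from base 33. Isg15 held 3 overlapping matches and Gbp3 held 2. Ifit3 held 2, of which 1 lies in the window shown. Ifi44, Ifit2, Ifi35, Tap1 and Irf9 had no match in this window, and Usp18, Rtp4, Ifi27, Dhx58 and Parp14 had no promoter in the table.

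The same letters occurred in 3.49% of all 27025 promoters and in 2.86% of the promoters of genes described. They occurred in 26 of 358 promoters of lower genes (7.26%) and in 14 of 348 promoters of higher genes (4.02%). Among the 12 interferon genes that were not past the fold, 6 of 11 promoters held a match, a share of 54.5% beside 61.5% in the lower ones. B2m, at a log2 ratio of -0.58, and Ddx58, at -0.54, are 2 of these 6 and lie just inside the fold. Oas1a, at a log2 ratio of 0.42, and Bst2, at -0.25, are shown for this contrast with the lower genes.
Oas1a: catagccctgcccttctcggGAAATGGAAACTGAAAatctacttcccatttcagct
Bst2: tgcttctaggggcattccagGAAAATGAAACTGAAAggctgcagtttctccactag

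The Oas1a window is chr5:120907510-120907565 and that of Bst2 chr8:71537567-71537622, both on the minus strand, and each held 2 overlapping matches.

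Usp18, a protease that removes ISG15 from proteins and dampens interferon signaling, had 333 reads in control against 22 in KD-1. Its log2 ratio of -4.11 [-4.84 to -3.52], or 17.3-fold, was the lowest of the 12676 genes. KD-2 had 297 Usp18 reads, a log2 ratio of -0.26. Ifi44, an interferon-induced cytoplasmic protein, had 671 reads in control, 79 with KD-1 and 970 with KD-2, with log2 ratios of -3.30 [-3.66 to -2.97] and 0.43.

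In both genes the KD-1 library was the low one and the other libraries were near each other. Ifit1, which binds foreign RNA 5′ ends, had 1260 reads in control, 158 with KD-1 and 1274 with KD-2, a KD-1 log2 ratio of -3.21 [-3.47 to -2.98]. Isg15, the ubiquitin-like modifier of the pathway, had 701, 94 and 960 reads in the same order and a KD-1 log2 ratio of -3.11 [-3.45 to -2.81]. Ifit3, a partner of Ifit1, had 1091, 172 and 1179 reads, with a ratio of -2.88 [-3.13 to -2.65].

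Usp18, Ifi44, Ifit1, Isg15 and Ifit3 differed from control by at least 7-fold in KD-1 and by less than 1.5-fold in KD-2. The next genes of the list were chosen after their values were seen. Gbp3, a guanylate-binding GTPase of cell-autonomous immunity, had 221 reads in control against 37 in KD-1 (-2.78), and Rtp4, an interferon-induced chaperone of receptors, had 291 and 52 (-2.69). Ifi27 had 2179 and 872 reads (-1.54). Among the RNA sensors, Ifih1, which encodes MDA5, had 289 and 125 reads (-1.43) and Dhx58, which encodes LGP2, had 141 and 75 (-1.13). Ddx58, which encodes RIG-I, was not past the fold (-0.54), nor were Eif2ak2 (-0.32), Oas3 (0.30) and Oas1a (0.42).

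Of the signaling genes, Stat2 had 682 reads in control against 388 in KD-1, a log2 ratio of -1.04 [-1.22 to -0.85], and Irf9 had 1147 and 814 (-0.72 [-0.85 to -0.59]). The exons of Irf9 overlap those of Rnf31 on the same strand, so its count is uncertain. The receptor genes were near control: Ifnar1 had 4751 and 5952 reads (0.10) and Ifnar2 859 and 964 (-0.06). Ifnb1, the gene of interferon beta, was at 0 reads in both of these libraries and at 1 in KD-2, so no level can be given at this depth.

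Not all of the list was low. Trim25, the ligase that activates the sensor RIG-I, had 8180 reads in control against 10249 in KD-1, a log2 ratio of 0.10. H2-K1, an MHC class I gene, had 992 and 1297 reads (0.16), Xaf1 3323 and 3472 (-0.16) and the interferon regulatory factor Irf1 3359 and 3544 (-0.15). Oas1a, an oligoadenylate synthetase, had 1025 and 1603 reads (0.42).

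The other 8 genes of the list were below the read minimum and each had fewer scaled reads in KD-1. Among them Mx2, a dynamin-like antiviral GTPase, had 106 reads in control, 21 with KD-1 and 136 with KD-2, and Oasl2 had 118, 25 and 144. Irf7, the factor that amplifies the response, had 94, 42 and 103 reads. In KD-2, the median log2 ratio of the 31 described interferon genes over the same control was 0.20.

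A list of interferon-inducible GTPases was added after these values were seen, and 5 of its 6 described members were lower. This is 83.3%, against 4.03% of all genes described. Of the lower members, Gbp2 and Gbp3 were already counted in the interferon list. Iigp1, Gbp3 and Igtp reached the read minimum through control, so this count was in part set by the minimum. Iigp1, which attacks the vacuole of intracellular parasites, had 207 reads in control, 27 with KD-1 and 260 with KD-2, a KD-1 log2 ratio of -3.14 [-3.80 to -2.58]. Igtp had 158, 43 and 180 reads (-2.09), with exons that overlap Irgm2 on the same strand, and Irgm1 had 1132, 638 and 1069 reads (-1.05). Gbp4 was the exception, with 132 and 187 reads (0.28).

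Genes of fibroblasts and of the extracellular matrix formed another group that was lower in KD-1. These genes are made by stromal cells, and the cultures held feeder fibroblasts. Of 23 fibroblast markers 22 passed the read minimum, 11 were lower and none was higher, and all 22 ratios were below 0. Summed over the list, reads were 315854, 269113 and 585278, log2 ratios of -0.45 and 0.79 after scaling. No marker of the list was at 0.

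Postn, the matricellular protein periostin, had 6547 reads in control, 1902 with KD-1 and 11277 with KD-2. Its KD-1 log2 ratio was -2.01 [-2.08 to -1.93] or 4.02-fold, and its KD-2 log2 ratio was 0.69. Lum, a proteoglycan of collagen fibrils, had 4339, 1871 and 8174 reads in the same order, a KD-1 log2 ratio of -1.44 [-1.52 to -1.36]. Control lay between the knockdown libraries in both.

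Col1a2, a chain of type I collagen, had 3355, 1542 and 5908 reads and a KD-1 log2 ratio of -1.34. The partner chain Col1a1 had 2391, 1915 and 4450 reads, a smaller difference of -0.54. Among the most abundant markers, Vim, the mesenchymal intermediate filament, had 72731, 57280 and 153267 reads (-0.57). Fn1, the matrix glycoprotein fibronectin, had 83181, 92486 and 129506 reads, a KD-1 log2 ratio of -0.07. The markers were therefore not lower by a common factor, and ran from -2.01 for Postn to -0.06 for Fbln2.

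Other lists of stromal genes also had lower members. Of 11 smooth muscle genes described 8 were lower (72.7%) and none higher, with a median log2 ratio of -0.77. Acta2, smooth muscle actin, had 3192 reads in control, 1303 with KD-1 and 6031 with KD-2, a KD-1 log2 ratio of -1.51 [-1.61 to -1.42], and Cnn1, calponin, had 241, 132 and 493 (-1.09). Myh11, the smooth muscle myosin heavy chain, had 209, 121 and 408 reads (-1.01). With the near bound of the counting interval required to be past the fold, 4 of the 8 were left.

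Of 33 genes taken by the collagen name pattern 15 were lower (45.5%) and 2 higher, and the median log2 ratio was -0.52. The pattern also took Col4a3bp, which encodes a lipid transfer protein and was at 0.06. Col11a1, a fibrillar collagen of cartilage, had 2996 reads in control, 1259 with KD-1 and 5918 with KD-2, a KD-1 log2 ratio of -1.47 [-1.57 to -1.38]. Col12a1, which binds to fibril surfaces, had 18239, 8426 and 36759 reads, a ratio of -1.34 [-1.37 to -1.30] and the lowest of the genes with 10000 reads or more. Col4a1, a basement membrane collagen, was higher instead, with 3155, 6021 and 5936 reads (0.71), and so was Col9a2 with 386, 984 and 665 reads (1.13). The exons of Col4a1 and Col4a2 overlap on opposite strands.

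Among 15 matricellular and elastic fiber genes described, 4 were lower (26.7%) and 1 higher, with a median log2 ratio of -0.46. The summed reads of the list went the other way, with 425294 in control against 558194 in KD-1, a log2 ratio of 0.17. Ogn, the small proteoglycan osteoglycin, had 3403 reads in control, 1157 with KD-1 and 6096 with KD-2 (-1.78 [-1.88 to -1.68]). Aspn, asporin, had 1249, 513 and 2237 reads (-1.51), and Tnc, tenascin C, had 10107, 7253 and 21537 (-0.70). Fbln1, fibulin 1, was the higher gene, with 300, 547 and 355 reads (0.64).

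Other genes with many reads lay below control with KD-1 and above it with KD-2. Agtr2, the angiotensin II type 2 receptor, had the lowest ratio of genes with 1000 to under 10000 reads, with 6522 reads in control, 1812 with KD-1 and 11163 with KD-2 (-2.07). Sdc2, a heparan sulfate proteoglycan of mesenchymal cells, had 5527, 1974 and 9576 reads (-1.71). Penk, the precursor of enkephalin, had 15112, 7469 and 29410 reads (-1.24).

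Mgp, an inhibitor of calcification, had 49768, 29526 and 88114 reads, a KD-1 log2 ratio of -0.98. Col5a2, a regulator of fibril diameter, had 22145, 13222 and 43088 reads (-0.97), Sulf1, a sulfatase of heparan sulfate, had 17913, 11176 and 29795 (-0.90) and Timp1, an inhibitor of matrix metalloproteinases, had 14777, 9363 and 16553 (-0.88). For all of these genes KD-2 had more reads per scaled library than control, and KD-1 fewer. D6Wsu163e, a gene with no well-known role, was a different case, with 1695, 674 and 1292 reads and lower ratios in both knockdowns (-1.55 and -0.49).

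A list of Y-linked genes was added after the values were seen, because the ES line is labelled female and reads from the Y chromosome bear on other cells of the dish. Of 8 genes 4 were described and none was past the fold. Ddx3y was at -0.58 [-0.65 to -0.51], Kdm5d at -0.53 with 615 reads in control against 497 in KD-1, Uty at -0.38 with 690 and 620 and Eif2s3y at -0.18 with 1392 and 1432. Their median was -0.45 for KD-1 and 0.55 for KD-2, beside -0.59 and 0.84 for the fibroblast list and -0.93 and 0.20 for the interferon list. The part of feeder cells in the lower matrix and interferon genes was not tested.

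Germline genes were among the groups on the higher side. These genes act in germ cells, in meiosis and in the silencing of transposons by piRNA, and ES cells express several at a low level. Of 24 listed, 19 passed the read minimum, 11 were higher (57.9%, against 3.82% of all genes described) and 2 were lower (10.5%). The median log2 ratio was 0.84. The other 5 had a mean below 100 reads and more scaled reads in KD-1, such as Stra8, which starts meiosis, with 23, 60 and 32 reads in control, KD-1 and KD-2.

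Tex101, a surface protein of germ cells, had 34 reads in control, 258 with KD-1 and 161 with KD-2. It reached the read minimum through KD-1. Its KD-1 log2 ratio was 2.68 [2.18 to 3.26] and its KD-2 log2 ratio was 2.13. Taf7l, a germ cell paralog of a TFIID subunit, had 225, 1241 and 1275 reads, ratios of 2.24 [2.03 to 2.45] and 2.40. Sycp1, the transverse filament of the synaptonemal complex, had 303, 1417 and 784 reads, ratios of 2.00 [1.82 to 2.19] and 1.27. Both knockdown libraries were above control for these 3 genes.

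Dazl, an RNA-binding protein of germ cells, differed in this respect. It had 881 reads in control, 3022 with KD-1 and 1070 with KD-2, log2 ratios of 1.56 [1.45 to 1.67] and 0.18. Stk31, a kinase of the testis, likewise had 1044, 2627 and 1178 reads, 1.11 for KD-1 and 0.08 for KD-2.

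Some further genes of the list act in the piRNA pathway and were named after their values were seen. Mov10l1, a helicase, had 317, 845 and 617 reads (1.19), Mael, which acts in transposon silencing, had 324, 809 and 804 (1.10) and Ddx4, the germ cell helicase VASA, had 744, 1639 and 1631 (0.92). Tdrd12, another factor of the pathway, had 3036, 5599 and 2804 reads (0.66). Piwil2, an argonaute protein that binds piRNA, was near control, with 960 and 1148 reads (0.04), and Asz1, which also acts in the pathway, had 172 and 164 (-0.29).

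Rhox6 and Rhox9, homeobox genes of the reproductive cluster on the X chromosome, were the 2 lower members. Rhox6 had 1517 reads in control, 917 with KD-1 and 556 with KD-2, log2 ratios of -0.95 [-1.07 to -0.83] and -1.54. Rhox9 had 1211, 773 and 445 reads, ratios of -0.87 and -1.54. Rhox5 of the same cluster was not lower, with 8652, 14411 and 10566 reads (0.51).

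The E-box CACGTG, a palindrome that is read by MYC, MAX and MGA, was searched in the same promoter windows. All 11 higher germline genes had a promoter and 7 held the letters (63.6%), against 10.5% of the promoters of genes described and 7.24% of all promoters. The element is shown in capitals, because MGA and MAX are known to act in the silencing of germline genes in ES cells.
Taf7l: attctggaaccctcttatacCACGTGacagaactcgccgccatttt
Sycp1: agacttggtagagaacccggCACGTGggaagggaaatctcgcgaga
Mov10l1: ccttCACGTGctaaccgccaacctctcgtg
Stk31: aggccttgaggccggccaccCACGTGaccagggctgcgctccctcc
Mael: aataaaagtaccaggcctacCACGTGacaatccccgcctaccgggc
Ddx4: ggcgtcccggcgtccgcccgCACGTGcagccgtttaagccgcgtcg
Slc25a31: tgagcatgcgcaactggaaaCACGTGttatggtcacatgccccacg

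The windows of Taf7l (chrX:134476514-134476559), Sycp1 (chr3:102936169-102936214), Mael (chr1:166238942-166238987) and Ddx4 (chr13:112652314-112652359) are on the minus strand. Those of Mov10l1 (chr15:88982744-88982773), Stk31 (chr6:49395464-49395509) and Slc25a31 (chr3:40708758-40708803) are on the plus strand. Tex101, Dazl, Sycp2 and Tdrd12 had no match in their windows. Among the 8 germline genes that were not higher 4 had a promoter and 2 of them, Hormad1 and Sycp3, held the letters. Over all 348 higher genes with a promoter the share was 11.8%, near the 10.5% of genes described.

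The Zscan4 genes were among the highest ratios of genes with 100 to under 1000 reads. They mark the transient 2-cell-like state, in which ES cells transcribe genes of the embryo at the first cleavage. Of 17 listed 2-cell-like genes, 5 passed the read minimum and 4 of these were higher. These 4 reached a mean of 100 reads only through the KD-1 library, so their count was set by the minimum. Zscan4f had 25 reads in control, 213 with KD-1 and 40 with KD-2, log2 ratios of 2.85 [2.27 to 3.53] and 0.57. Zscan4d had 35, 261 and 70 reads (2.66 [2.16 to 3.23] in KD-1), Zscan4a 32, 234 and 45 (2.63) and Zscan4c 53, 363 and 82 (2.54). These genes are near-identical copies, so how reads were divided among them is uncertain and the 4 ratios are not independent. In each of them KD-1 was far above both other libraries.

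Usp17la, the fifth gene described, had 106, 164 and 115 reads (0.41). Of the other listed genes 11 had a mean below 100 reads. Zscan4b had 9, 124 and 27 reads, Usp17lb 14, 88 and 38 and Zfp352 23, 52 and 26. A list of related genes was added after seeing the values. In it Gm5039, Gm8300, Gm2022 and Gm5662, which lie together on chromosome 12 and are also close copies, had KD-1 log2 ratios of 2.38, 2.37, 2.23 and 2.20 and KD-2 ratios of 0.61, 0.52, 0.28 and 0.52. The fifth of its 5 described members, Gm8994, was also higher, with 456, 882 and 533 reads (0.73). Gm5039, Gm5662 and Gm8300, with 39, 33 and 88 reads in control, reached the minimum through KD-1. Dux, the activator of the 2-cell program, had 2 reads in control, 20 with KD-1 and 17 with KD-2.

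Most pluripotency genes were not past the fold. Of 25 genes, all described, 2 were higher (8.00%), none was lower, and the median log2 ratio was 0.19, with 21 of the 25 ratios above 0. Utf1, a chromatin factor of ES cells, had 127 reads in control, 240 with KD-1 and 308 with KD-2 (0.69 [0.38 to 1.02] in KD-1). Nr0b1, which encodes DAX1, had 5325, 9913 and 8651 reads (0.67 [0.63 to 0.72]). Sox2 had 27360 and 28219 reads in control and KD-1 (-0.18), and Dppa3, at -0.47 with 5419 and 4567 reads, was the lowest of the list.

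Markers of early lineages were few above the read minimum. The numbers described were 7 of 10 primed epiblast, 8 of 14 primitive endoderm, 7 of 17 visceral endoderm, 5 of 13 mesendoderm, 8 of 16 neural and 3 of 14 trophoblast genes. Lrp2, the endocytic receptor megalin of visceral endoderm, was the highest of them with 877 reads in control, 2219 with KD-1 and 1115 with KD-2 (1.12 [1.00 to 1.23]). Eomes, a T-box factor of mesendoderm, had 249, 463 and 406 reads (0.67), and Sall2, of the primed epiblast list, had 227, 406 and 374 (0.62). Map2, a neuronal microtubule protein, was lower with 372, 244 and 386 reads (-0.83). No trophoblast gene was past the fold, and Tfap2c, the one with most reads, was at -0.36.

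Lists of other cell types that the dish could hold are given by their members. Of 8 blood and macrophage genes 1 was described, Cd68, with 178 and 255 reads (0.30). Of 8 endothelial genes 4 were described, and Kdr, a VEGF receptor, was higher with 296, 584 and 485 reads (0.76). Of 10 epithelial genes 5 were described, with 21970 and 23955 reads in sum, and Esrp1, a splicing regulator of epithelia, was lower with 187, 143 and 70 reads (-0.61).

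Several other genes with 1000 to under 10000 reads were higher. Cd84, a SLAM family receptor of immune cells, had 598 reads in control, 3260 with KD-1 and 1046 with KD-2, log2 ratios of 2.22 and 0.71. Cd209c, a C-type lectin of the DC-SIGN family, had 1007, 4138 and 2207 reads, ratios of 1.82 [1.72 to 1.92] and 1.03. Aard, an alanine- and arginine-rich protein, had 675, 1887 and 938 reads (1.26), and Lama3, a laminin chain of epithelial basement membranes, had 575, 1565 and 818 (1.22). In all 4 genes KD-2 lay between control and KD-1. The transcript 6330410L21Rik was at 1.42 with 1070, 3351 and 1840 reads, and its exons overlap those of Egf on the opposite strand.

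Among genes with 10000 reads or more, Prdx6, a peroxiredoxin, had 8063 reads in control, 17110 with KD-1 and 10283 with KD-2 (0.86 [0.82 to 0.90]). Hsph1, a co-chaperone of HSP70, had 8730, 16695 and 9506 reads (0.71), and Gabarapl2, an autophagy protein of the ATG8 family, had 12283, 23350 and 11836 (0.70). These differences were in KD-1, with KD-2 log2 ratios of 0.25, 0.03 and -0.15. Hsph1 was the only one of 12 heat shock genes described that was past the fold.

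In a list of abundant non-coding RNAs and loci that are often read with them, 3 of 11 described were higher (27.3%) and none lower. The RNA of all libraries had been depleted of ribosomal RNA. Rn45s, the 45S precursor of ribosomal RNA, had 583027 reads in control, 2533951 with KD-1 and 1525879 with KD-2, which is 0.81%, 2.97% and 2.18% of the reads on genes. Its KD-1 log2 ratio was 1.90. Lars2, which encodes the mitochondrial leucyl-tRNA synthetase, had 18671, 464039 and 40743 reads, the highest KD-1 log2 ratio of the genes described at 4.41 [4.39 to 4.43]. A list of 20 aminoacyl-tRNA synthetases, which holds none of the mitochondrial ones whose symbols end in 2, ran from -0.15 to 0.21.

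Mir6236 had 1229 reads in control, 24133 with KD-1 and 1136 with KD-2, a KD-1 log2 ratio of 4.07 [3.99 to 4.16], and Mir6240 had 126, 791 and 461 (2.42 [2.15 to 2.71]). They are 2 of 22 described genes with a Mir symbol, which include the host genes Mir143hg, Mir22hg and Mir17hg, and the other 20 were not past the fold. The libraries were made of total RNA, so these are reads assigned to the locus and do not measure the mature RNA. Whether the reads came from these loci was not tested. The mature sequences are shown, with the seed in capitals, to identify both loci, and they share no seed.
miR-6236: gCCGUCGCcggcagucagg
miR-6240: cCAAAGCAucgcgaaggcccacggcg

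RefSeq places the mature sequences at chr9:110281353-110281371 and chr5:114851973-114851998, both on the plus strand. The part of ribosomal RNA depletion in these counts was not tested. Reads outside genes were also a larger share of KD-1 than of the other libraries. Small nucleolar and Cajal body RNAs, 79 genes described, had a median log2 ratio of -0.01 and no member past the fold, and Snora74a, the one with most reads, was at 0.06.

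Of 33 nuclear pore genes listed 32 were in the tables, and all 32 were described. Nup153 was the only member lower past the fold, and the others apart from Pom121 lay between -0.46 for Nup43 and 0.39 for Nup214. Pom121, a transmembrane nucleoporin, had 656 reads in control, 1288 with KD-1 and 677 with KD-2 (0.75), with exons that overlap Nsun5 on the opposite strand. Nucleoporins of the basket were near control: Tpr had 48957 and 58406 reads (0.03 [0.01 to 0.05]) and Nup50 had 7208 and 8666 (0.04). The median log2 ratio of the list was -0.02.

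None of 12 CTCF and cohesin genes described was past the fold, and their median log2 ratio was -0.01. Smc1a, a cohesin subunit and the member with most reads, was at -0.22 with 38164 and 38244 reads. Of 23 polycomb genes 1 was past the fold, Pcgf2, a PRC1 subunit, with 244 reads in control, 457 with KD-1 and 200 with KD-2 (0.68). The polycomb median was 0.15.

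Genes of basic cell functions gave lists with a narrow spread. The median log2 ratio was -0.03 over 79 cytosolic ribosomal proteins, -0.03 over 77 mitochondrial ribosomal proteins, -0.03 over 76 respiratory chain subunits and -0.02 over 37 proteasome subunits. It was -0.06 for 18 ribosome biogenesis genes, -0.11 for 25 DNA replication genes and 0.00 for 20 mitosis genes. In these 7 lists Rpl39l, a ribosomal protein of the testis, was the only gene past the fold, with 2701 reads in control, 4929 with KD-1 and 2203 with KD-2 (0.64). The SD of the log2 ratio was 0.12 over cytosolic ribosomal proteins, beside 1.21 over the interferon list and 0.48 over the fibroblast list.

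Of 25 cholesterol synthesis genes 3 were lower (12%, beside 4.03% of all genes described), none was higher, and the median log2 ratio was -0.24. Idi1, the isomerase of isopentenyl diphosphate, had 12152 reads in control, 6745 with KD-1 and 7116 with KD-2, log2 ratios of -1.07 [-1.12 to -1.03] and -0.87. Hsd17b7 had 2267, 1595 and 2418 reads (-0.73), and Ebp, a sterol isomerase, had 5806, 4089 and 4241 (-0.73).

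Of 14 hypoxia genes described 4 were lower (28.6%) and none higher. Pdk1, a kinase that holds back pyruvate oxidation, had 7796, 4820 and 5893 reads (-0.92), Adm, adrenomedullin, had 1796, 1169 and 3641 (-0.84) and Bhlhe40 had 1771, 1290 and 3357 (-0.68). The glycolysis list of 14 genes had no member past the fold, and Pgk1, the one with most reads, was at -0.39. The lysosome list of 17 genes had 1 higher and 1 lower gene. Gpnmb, a glycoprotein of lysosomes, had 954, 2541 and 1706 reads (1.19) and Hexa, a subunit of hexosaminidase, had 3287, 1466 and 5899 (-1.39).

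Of 16 immediate early genes Myc alone was higher, with 837 reads in control, 1493 with KD-1 and 1070 with KD-2 (0.61). Of 17 chemokine and NF-kB genes 4 were higher (23.5%) and 1 was lower. Saa3, an acute phase protein, had 84, 198 and 112 reads (1.01), Lcn2, which binds siderophores, had 146, 293 and 299 (0.78), and Il6 had 70, 140 and 94 (0.77). Saa3 and Il6 reached the read minimum through KD-1. The counting intervals of Lcn2 [0.49 to 1.08] and Il6 [0.35 to 1.21] reached inside the fold. Cxcl5, a neutrophil chemokine, was lower with 4610, 2983 and 7423 reads (-0.85).

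Pmaip1, which encodes the apoptosis protein NOXA, was the only one of 18 p53 targets past the fold, with 1244, 2574 and 1409 reads (0.83). Axl, a receptor kinase, was lower among 10 YAP targets (2221, 1428 and 4272 reads, -0.86), and Aldh1l2, of mitochondrial folate metabolism, among 24 genes of the integrated stress response (422, 298 and 539 reads, -0.72). Ccnd1, cyclin D1, was lower among 5 Wnt targets (20534, 15068 and 29713 reads, -0.67) and Nrarp among 4 Notch targets (137, 96 and 292 reads, -0.73). Gli2 was higher among 5 Hedgehog targets, with 328, 719 and 415 reads (0.91). No member was past the fold in the lists of 15 ER chaperones, 10 NRF2 targets, 8 BMP targets, 11 FGF feedback genes, 6 retinoic acid response genes or 9 homeobox cluster genes.

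Of 25 imprinted genes described 3 were higher and 3 lower. H19, the maternal non-coding RNA, had 64698 reads in control, 43961 with KD-1 and 127494 with KD-2 (-0.78), and its neighbor Igf2 had 10646, 7782 and 22852 (-0.67). Both went the way of the fibroblast markers in each knockdown. Nnat was lower as well (506, 382 and 426 reads, -0.63). Peg10, a gene derived from a retrotransposon, was higher with 6418, 11882 and 6389 reads (0.67). Mirg (1118, 2039 and 1150 reads, 0.64) and Rtl1 (826, 1495 and 1010 reads, 0.63) of one imprinted domain on chromosome 12 were also higher. Meg3 and Rian of the same domain were described and were not past the fold.

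Large gene families are given beside the background of 3.82% higher and 4.03% lower. Of 325 Zfp genes 14 were higher (4.31%) and 1, Zfp948, was lower (0.308%). Of 212 solute carriers 9 were higher (4.25%) and 7 lower (3.30%), with Slc41a2, a magnesium transporter, the lowest (581, 359 and 999 reads, -0.92). Of 58 replication-dependent histone genes 2 were higher, both of the testis: Hist1h1t had 325, 1148 and 737 reads (3.02-fold) and Hist1h2aa 1973, 4010 and 6138 (0.80). H2afy, which encodes macroH2A, was the only lower gene of 9 histone variants (5294, 3996 and 4317 reads, -0.63). Among 30 integrins and laminins 4 were lower (13.3%), led by Itgbl1 (755, 458 and 1548 reads, -0.94), and Lama3 alone was higher. One of 31 kinesins was higher, Kif21b (114, 234 and 152 reads, 0.81), and 1 of 19 clustered protocadherins was lower, Pcdhac2 (150, 97 and 213 reads, -0.85).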

How the data were processed

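RNA-Seq was performed on 3 libraries, 1 each of control, NUP153 KD-1 and NUP153 KD-2 ES cells, so replicates could not be compared. The deposited values are raw read counts per gene, without normalization. Per the labels, the authors used Trim Galore 0.4.1, TopHat2 2.1.1, HTSeq and the mouse genome mm10 (GRCm38), while the methods name featureCounts. Strandedness of counting is not given in the sources used here, so overlapping genes could not be separated. Reads that named no gene (outside genes and, at 1.65% in control and 1.53% in KD-1, ambiguous) were left out of library sizes. Depth was 72344726 to 85258834 reads on genes in the 2 libraries compared.

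The scaling was computed with edgeR 4.0.16 (upper quartile, with TMM and library totals as alternatives) and DESeq2 1.42.0 (size factors) in R 4.3.3. Log2 ratios had a pseudocount of 0.5 reads and a minimum mean of 100 reads. The fold threshold was 1.5. Exact intervals (95%) were from scipy 1.17.1 in Python 3.11.15. The fixed dispersion that the study took from spike-ins was not used here, and no test was run. Ratios and intervals were checked on simulated counts that had counting error only. This check does not cover biological or library preparation spread. Of the gene names 23204 matched the RefSeq table (GRCm38.p6) by symbol and 1096 by an older symbol, and 17224 had a promoter. Other motifs searched in the promoters were AP-1, CRE, NF-Y, TATA, SRE, HSE and the CArG box.

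Genes named were the 6 highest and 6 lowest log2 ratios in each of 3 strata of mean reads (from 100, 1000 and 10000), leaving out genes that the paper names, plus Nup153 and, in each list described, up to 3 highest and 3 lowest members past the fold or, where there was none, the members with most reads. Most others are marked as chosen later, or given as members of a list that were not past the fold. Further genes, such as Stat2, Irf9, Stk31, Ifnar1, Ifnar2, Ifnb1 and Dux, were named outside this rule without such a mark. The genes described and the 59 lists were chosen with earlier results of these data known, and 4 lists were added after the values were seen. The list of mitochondrially encoded genes had no gene in the tables. Some genes that this rule names are not reported here.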

Additional observations from a re-analysis of the deposited data

Results flagged for a closer look

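Data outside the genes described held values above control and some below it. Reads outside genes made up 24.1% of the KD-1 library, against 21.8% in control and 21.5% in KD-2. Among 3973 genes with a mean of 10 to under 100 reads, 992 were higher and 389 lower past 1.5-fold, 6 were higher by more than 8-fold and 1 was lower by more than 8-fold. That gene, Dynap, had 24, 3 and 15 reads, a KD-1 log2 ratio of -3.01 [-5.60 to -1.50]. Casr, the calcium-sensing receptor, had 1 reads in control, 37 with KD-1 and 10 with KD-2, a KD-1 log2 ratio of 4.46 [2.42 to 10.3]. Zscan4b, of the 2-cell-like list, was at 3.50 [2.59 to 4.72], and Lrg1, a secreted glycoprotein, at 3.36 [1.65 to 6.75] with 2, 29 and 20 reads. Bhmt, an enzyme of methionine metabolism, was at 3.31 [2.51 to 4.35] with 12, 144 and 35 reads. Cpb2, a carboxypeptidase of plasma, was at 3.18 [1.70 to 5.71] with 3, 36 and 11 reads, and Atp2b2, a calcium pump, at 3.15 [1.42 to 6.54] with 2, 25 and 4. None of these differences was tested.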

How the results depend on the processing

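With 1 library per group no replicate could be left out. No paired analysis was possible because each group holds 1 library and no test was run. Other scalings shifted the KD-1 log2 ratios by -0.01 to -0.03 and those of KD-2 by 0.01 to 0.15, and Nup153 was at -1.01 with DESeq2 size factors. They gave 430 to 458 higher and 538 to 562 lower genes. With a minimum mean of 10 reads 1476 genes were higher and 900 lower, and with a minimum of 1000 reads 97 and 210. Past 2-fold there were 111 and 121, and with the near bound of the counting interval past 1.5-fold 210 and 281. Among the 59 lists, leaving out the 4 added later, the number with a median past the fold was 5 as reported, 3 with the minimum of 1000 reads and 1 (2-cell-like, whose higher members reached the read minimum through KD-1) with the 2-fold threshold. All 36 genes of the strata stayed past 1.5-fold under the other scalings and with a pseudocount of 5 reads. Depth limits genes near the minimum, where the interval reached a median of 0.22 to either side.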

Other observations

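Genes past the fold in the same direction lay next to each other in 11 runs of at least 3 neighbors among the genes described, counted in the order of RefSeq gene starts (GRCm38.p6). The longest was chr19:34492316-34650009, with Lipa, Ifit2, Ifit3, Ifit3b and Ifit1, all lower, from -3.21 to -0.87. A run of 4 lower genes at chr1:173747293-173982844 held Ifi204, Mnda, Ifi203 and Ifi202b of the interferon-inducible p200 family, from -1.08 to -0.72. The higher runs at chr7:10794241-11402318 and chr12:87514316-88321762 were the Zscan4 genes and the Gm8300 group of close copies. Rhox6, Rhox9 and Rhox10 formed a lower run at chrX:37827055-38071688, from -1.05 to -0.87. Genes of a cluster can share sequence, so their counts are not independent.

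By gene type, 23 of 347 long non-coding RNAs (6.63%) were higher and 5 (1.44%) lower, against 446 (3.69%) and 505 (4.17%) of 12100 protein-coding genes. Of 79 transcribed pseudogenes 10 were higher (12.7%) and none lower, and these can share reads with the genes they derive from. Over the autosomes and the X chromosome, the median log2 ratio of a chromosome ran from -0.04 on chromosome 3 to 0.04 on chromosome 8. Across 4 equal groups by exon length it ran from -0.02 to 0.05, and across 4 groups by promoter GC content from -0.01 to 0.04. In the promoters of genes past the fold, AP-1 letters (TGANTCA) were in 9.20% of higher and 8.38% of lower genes, against 4.81% of genes described. Of all 27025 promoters, 7.93% held them. TATA letters (TATAAA) were in 12.07% of higher and 12.01% of lower genes, against 7.09% of genes described and 14.16% of all promoters. CRE letters (TGACGTCA) went the other way, with 2.59% and 1.12% against 3.33% of genes described. These are descriptions across genes, which are not replicates.

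Crygd, a lens crystallin and the only one of 8 gamma crystallins described, had 56 reads in control, 326 with KD-1 and 128 with KD-2, log2 ratios of 2.31 [1.91 to 2.75] and 1.09. It reached the read minimum through KD-1 and was chosen after its values were seen.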
